A study of Mus musculus with 8 samples.

Results

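The 10 genes described here encode the transcription factor NRF2 (gene Nfe2l2) and 9 enzymes of the antioxidant defense: the glutamate cysteine ligase subunits Gclm and Gclc, Txnrd1, Srxn1 and Prdx1 of the thioredoxin and peroxiredoxin system, catalase (Cat), the superoxide dismutases Sod1 and Sod2, and the quinone reductase Nqo1. They were chosen by name and matched through their Ensembl identifiers. All 10 were among the 46517 genes with values and among the 14139 genes that had enough reads to be tested.

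The values came from RNA-seq of osteoclasts, the multinucleated cells that resorb bone, grown in culture from the femur marrow of mice 6 to 8 weeks old. Marrow cells in suspension after 16 h were given 10% medium conditioned by L929 cells, which supplies the growth factor M-CSF. GST-RANKL, a form of the cytokine that drives osteoclast formation, was given at 50 ng/ml for 7 days. The methods put 3 days in the L929 medium before it, a step that the labels do not mention. The study asked which genes depend on ELMO1, an adaptor that works with DOCK proteins to activate the small GTPase Rac. The groups were 4 Elmo1-/- mice with a global deletion and 4 Elmo1+/- mice, 1 library per mouse. The Elmo1+/- mice, which keep 1 intact copy of the gene, were the controls and are titled WT by the depositors. Elmo1+/+ osteoclasts were not analysed here. The deletion is present in all cells of the Elmo1-/- mice, not in the osteoclast lineage alone. All libraries shared 1 culture protocol, and the labels of these libraries do not give the strain or the sex of the mice.

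NRF2 is held at a low level by KEAP1, which directs it to degradation by a CUL3 ubiquitin ligase. Oxidants and electrophiles modify KEAP1, and NRF2 then accumulates, pairs with small MAF proteins and binds antioxidant response elements, while BACH1 competes for the same elements. Most of this control acts on the NRF2 protein, which mRNA does not show. In osteoclast precursors, RANKL signaling produces reactive oxygen species, and NRF2 is known as a brake on osteoclast formation.

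The antioxidant response element has the core TGACNNNGC. Its letters were searched on both strands in RefSeq windows (GRCm38.p6) from 250 bases before to 50 bases after each annotated start. Of the 10 genes, 9 had a window, Gclc had none, and 6 of the 9 held the core in at least 1 window. Among all 27025 genes with a window, 14.0% held it, and among those tested in these libraries 17.1% did. In the wider list of NRF2 pathway genes described below, 71 genes had a window, and 14 of them, or 19.7%, held it. Whether the core is more frequent in the 9 genes was not tested. The 6 sites are shown because the core is what NRF2 is known to bind, each read 5′ to 3′ on the minus strand with 10 bases on either side and the core in capitals. They are descriptions of letters and not evidence of binding.
Nfe2l2: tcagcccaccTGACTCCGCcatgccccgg
Gclm: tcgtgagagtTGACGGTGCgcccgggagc
Txnrd1: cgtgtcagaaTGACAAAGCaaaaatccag
Srxn1: tgtctcactcTGACCTAGCtgcccactgc
Prdx1: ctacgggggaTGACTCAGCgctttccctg
Sod1: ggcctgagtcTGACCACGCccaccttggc

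The Nfe2l2 site at chr2:75704885-75704913 was centered 236 bases before the gene's start. The Gclm site at chr3:122245413-122245441 lay 130 bases before its start, and the Prdx1 site at chr4:116685456-116685484 129 bases before. The Prdx1 core also holds TGACTCA, the AP-1 motif, which overlaps the antioxidant response element by its first 7 letters and which the core held in 0.454% of all windows. The Sod1 site at chr16:90220696-90220724 lay 52 bases before the start, and the Txnrd1 site at chr10:82859104-82859132 88 bases before 1 of the starts annotated for that gene. The Srxn1 site at chr2:152105542-152105570 lay 33 bases after the start. These distances count from the RefSeq starts, which are not always the GENCODE gene boundaries given with each gene. From those boundaries the Prdx1 site lay 74 bases before, the Nfe2l2 site 258 before, the Sod1 site 44 before and the Srxn1 site 40 after. The Txnrd1 site lay 25167 bases after the boundary of that gene, inside its annotated span. The windows of Cat, Sod2 and Nqo1 held no match, which says only that these letters were not in those 300 bases.

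The libraries held between 20905502 and 40846651 reads on genes. Elmo1 fell by 81.7% in Elmo1-/- osteoclasts (1593 ± 150.3 against 292 ± 17.6 normalized counts, SD, n = 4 each) and was the only gene of 14139 that differed between genotypes at an adjusted p under 0.05 with limma (adjusted p = 8.4e-06). The libraries numbered 1 and 2 stood apart from those numbered 3 and 4 in both genotypes, along a first principal component that held 62.3% of the variance. The study ran 2 experiments with 2 mice of each genotype. Which mice made up which experiment is not given, so the numbers are used here only as the titles give them. Between these sets 17.0% of all tested genes were higher in mice 3 and 4 and 15.6% lower. All 10 osteoclast markers were higher in mice 3 and 4, and their summed level was 450909 to 692445 normalized counts in mice 1 and 2 against 1029113 to 1173015 in mice 3 and 4. Of 8 macrophage markers, Mrc1, Cd14, Lyz2 and Mertk were lower in mice 3 and 4. Adgre1, Csf1r, Cd68 and Cx3cr1 were not called (limma adjusted p = 0.228, 0.0874, 0.775 and 0.981). The macrophage sums were 1545667 to 1923988 in mice 1 and 2 against 1165748 to 1266473. Most of each sum was Lyz2 alone (1472234 of 1688602 in Elmo1+/- mouse 1), so the sum does not show a fall of the whole list. Elmo1-/- mouse 2 lay between both sets on the first component (-6.03, against -52.3 to -23.1 for the others numbered 1 and 2 and 24.7 to 31.9 for those numbered 3 and 4), so for the 10 genes set differences are also given without it where that changed a call. Sums of 7 erythroid markers reached at most 14.2 normalized counts, and Hbb-bs and Hba-a2 were at 0 in all libraries. In the other lists, 1 of 7 tested neutrophil markers was lower in mice 3 and 4, 1 of 3 dendritic cell markers was higher, 1 of 2 B and T cell markers was higher and 1 lower, 0 of 4 stromal markers were called, and no mast cell and basophil marker was tested (sums up to 26.5). These are single genes of short lists, beside the shares of all genes given above. No marker tested differed between genotypes, and all 10 osteoclast markers were detected. In such bulk libraries fewer cells of a type and less RNA per cell cannot be told apart.

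The enzymes were expressed at very different levels. Normalized counts, that is, reads divided by 1 size factor per library, were divided by exon length in kilobases to compare genes. On this scale Prdx1, which reduces hydrogen peroxide through thioredoxin, had a mean level of 62809.5 ± 7584 (SD, n = 8 libraries), 9.23 times that of Cat, which breaks down hydrogen peroxide directly, at 6808 ± 555. Prdx1 ranked 18 among all genes per kilobase and took 0.502% to 0.677% of all reads. Srxn1, which restores overoxidized peroxiredoxins, followed at 4871 ± 420.3. The lowest was Gclc, the catalytic subunit of glutathione's rate-limiting ligase, at 405 ± 29.1.

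Between these ends stood Txnrd1 (3178 ± 259.6), Nqo1 (2776 ± 379), Sod2 (2348 ± 107), Gclm (2088 ± 158) and Nfe2l2 (1926 ± 181), all in normalized counts per kilobase. Each neighbor pair in that run overlapped over the 8 libraries. Sod1 came next at 1371 ± 73.9 and overlapped neither Nfe2l2 nor Gclc. The middle of this order depends on the length used. With the longest transcript in place of all exons, Txnrd1 rose to 6218 and stood above Srxn1 at 4885, Sod2 to 4010 and Nfe2l2 to 2954, while Prdx1 stayed highest and Gclc lowest.

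**Figure D1:**
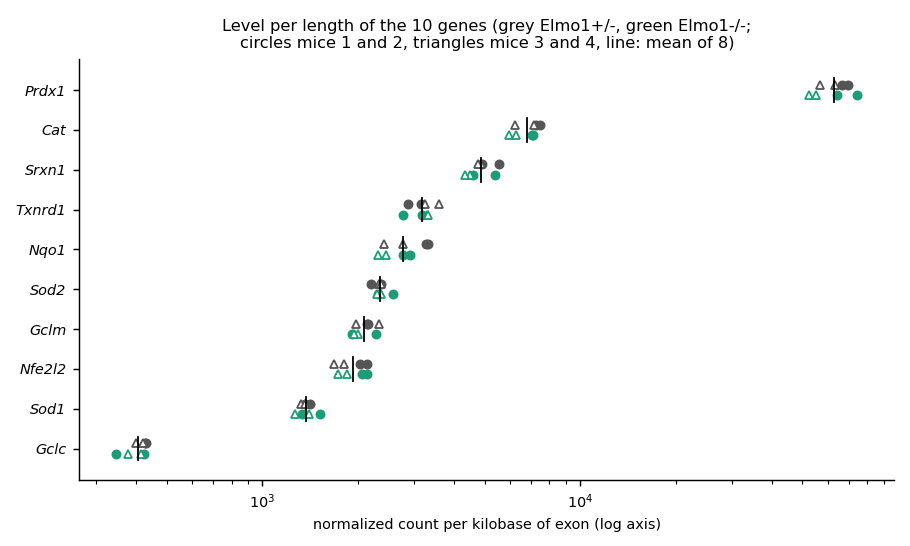
Normalized count per kilobase of exon (log axis) of the 10 genes in each of 8 libraries, with grey for Elmo1+/-, green for Elmo1-/-, circles for mice 1 and 2, triangles for mice 3 and 4 and a line at the mean. Prdx1 lies apart at 52396 to 74447, Gclc is lowest at 347 to 430, and the genes from Txnrd1 to Nfe2l2 overlap with their neighbors.

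The first comparison asked whether osteoclasts without ELMO1 differ in NRF2 or these enzymes. None of the 10 genes was called by limma, edgeR or DESeq2 (adjusted p = 0.9999 for each by limma), against 0.00707% of all tested genes by limma, and none had an unadjusted p under 0.05 with any of these tools, a level that 0.941% of genes reached by limma. The log2 difference was below 0, with Elmo1-/- lower, for 7 of the 10 and for 7301 of all 14139 tested genes. The median log2 difference was -0.073 over the 10 genes and -0.0031 over all tested genes, and the median size of the difference was 0.073 and 0.059. No gene of the 10 had genotypes that did not overlap, which 0.941% of genes had (0.439% with Elmo1-/- lower and 0.502% with Elmo1-/- higher). In this fit, which had no term for set or number, the lowest 95% limit of any gene was -0.44 on the log2 scale, for Nqo1. The highest was 0.25, for Nfe2l2. These limits include the spread between the sets. With the number as a block the lowest was -0.30, for Nqo1, and the highest 0.21, for Sod2. With the number as a block or the set as a term, 0 of the 10 were called.

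The second comparison set mice 3 and 4 against mice 1 and 2, with genotype as a term. This division was chosen with the separation of the libraries already known. Its p-values and intervals, here and for each gene below, measure the spread between mice within these sets. They do not show whether the difference would repeat in other sets. Nfe2l2, Prdx1 and Nqo1 were lower in mice 3 and 4, which made 3 of 10 called and none higher. Among all tested genes 32.6% were called, 17.0% higher and 15.6% lower, so the share of the 10 was near the background. Libraries of both sets did not overlap for 4 of the 10 genes, the 3 named and Txnrd1, which was the only 1 with all values of mice 3 and 4 above those of mice 1 and 2. Over all tested genes 34.0% did not overlap. The median size of the set difference was 0.16 for the 10 genes and 0.21 for all. Without Elmo1-/- mouse 2, 6 of the 10 were called, Txnrd1 higher and Srxn1 and Cat lower in addition. Over all 14139 tested genes 6897 were then called, against 4603 with all mice. That mouse was picked out from these same data as lying between the sets. More calls without it were therefore to be foreseen and are no separate evidence for a set difference. All 10 osteoclast markers and 4 of 8 macrophage markers moved with the same division of the libraries. Their part in these differences was not tested.

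No gene of the 10 had a genotype difference that itself differed between the sets (limma interaction, adjusted p = 0.9999 for each, 0 of 14139 genes called, 378 genes or 2.67% at an unadjusted p under 0.05, and 387 by edgeR with 0 called). None of the 10 was among those at an unadjusted p under 0.05.

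**Figure D2:**
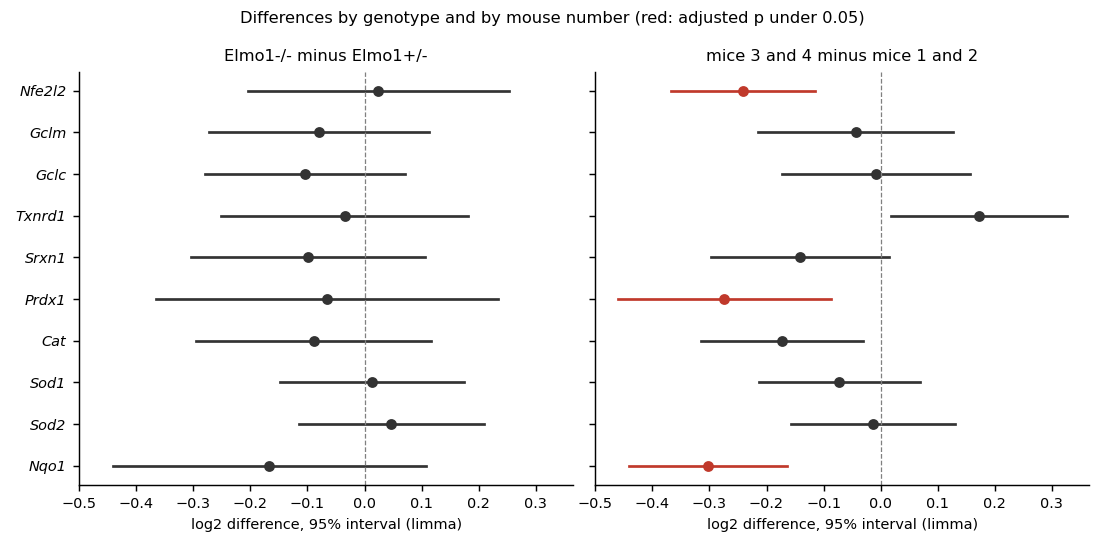
Log2 difference with its 95% interval from limma for each of the 10 genes, by genotype (left, Elmo1-/- minus Elmo1+/-) and by mouse number (right, mice 3 and 4 minus mice 1 and 2), with red for an adjusted p under 0.05. All genotype intervals include 0, and at right Nfe2l2, Prdx1 and Nqo1 lie below 0 in red.

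Nfe2l2 (ENSMUSG00000015839, chr2:75675513-75704641, minus strand, positions in GRCm38 here and below) encodes NRF2 itself. Its normalized counts were 8080.2, 7708, 6840.0 and 6381 in the Elmo1+/- libraries, by mouse number, against 8083, 7804, 6577 and 7013 in the Elmo1-/- libraries. The genotypes overlapped throughout, and in each genotype the values of mice 1 and 2 lay above those of mice 3 and 4. The mean was 7252 ± 779 in Elmo1+/- and 7369 ± 696 in Elmo1-/- (SD, n = 4 each), a log2 difference of 0.024 (SE 0.10, 95% interval -0.21 to 0.25). The ratio that the study used, the Elmo1-/- mean over the sum of both means, was 0.504, where 0.5 is no difference. Between sets the level went from 7919 ± 192 to 6703 ± 279, a log2 difference of -0.24 (SE 0.057, 95% interval -0.37 to -0.12, adjusted p = 0.0108, limma). The call held in each run that left out 1 library.

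Gclm and Gclc encode the modifier and catalytic subunits of glutamate cysteine ligase, the enzyme that makes the first intermediate of glutathione. Gclm (ENSMUSG00000028124, chr3:122245557-122270732, plus strand) had normalized counts of 13449, 13512, 14636 and 12394 in the Elmo1+/- libraries, by mouse number, against 12019, 14342, 12529.6 and 12219.6 in the Elmo1-/- libraries. The values overlapped between genotypes and between sets, with the highest in Elmo1+/- mouse 3 and the lowest in Elmo1-/- mouse 1. The log2 genotype difference was -0.080 (SE 0.085, 95% interval -0.27 to 0.11), and the log2 set difference -0.043 (SE 0.077, 95% interval -0.21 to 0.13, adjusted p = 0.689, limma). A second gene, Gm17494, overlaps Gclm on the other strand at a mean of 24.7 normalized counts.

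For Gclc (ENSMUSG00000032350, chr9:77754535-77794485, plus strand) the normalized counts were 1606, 1619, 1581 and 1512 in the Elmo1+/- libraries, by mouse number, against 1306, 1601, 1425 and 1562 in the Elmo1-/- libraries. Elmo1-/- mouse 1 was again the lowest, and the other 7 libraries lay between 1425 and 1619. The log2 genotype difference was -0.10 (SE 0.078, 95% interval -0.28 to 0.071), and the log2 set difference -0.0077 (SE 0.074, 95% interval -0.17 to 0.16, adjusted p = 0.946, limma). The level of Gclm per kilobase was 5.11 ± 0.290 times that of Gclc in Elmo1+/- and 5.21 ± 0.363 times in Elmo1-/- (SD, n = 4 each), and the ratio lay between 4.68 and 5.54 in all 8 libraries. The ratios of both genotypes overlapped.

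**Figure D3:**
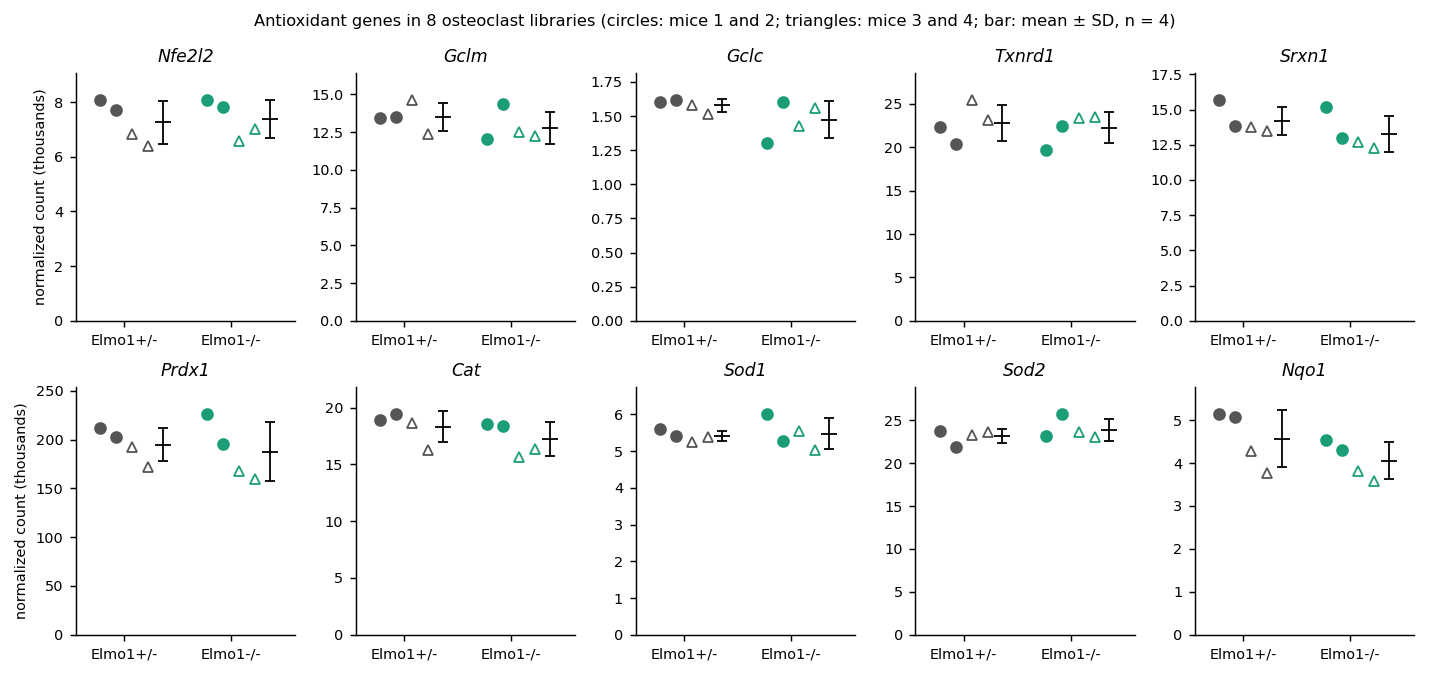
Normalized counts of the 10 genes in each library, with grey for Elmo1+/-, green for Elmo1-/-, filled circles for mice 1 and 2, open triangles for mice 3 and 4 and a black mark for the genotype's mean ± SD (n = 4). The genotypes overlap in all 10 panels, and the triangles lie below all circles for Nfe2l2, Prdx1 and Nqo1 and above them for Txnrd1.

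Txnrd1, Srxn1 and Prdx1 serve thioredoxin-dependent removal of peroxide. Txnrd1 (ENSMUSG00000020250, chr10:82833951-82897712, plus strand), the cytosolic thioredoxin reductase that spends NADPH to keep thioredoxin reduced, had normalized counts of 22284, 20358, 25466 and 23089 in the Elmo1+/- libraries, by mouse number, against 19639, 22477, 23398 and 23464 in the Elmo1-/- libraries. The genotypes overlapped, while the lowest value of mice 3 and 4 was above the highest of mice 1 and 2. The log2 genotype difference was -0.035 (SE 0.10, 95% interval -0.25 to 0.18). Between sets the level went from 21189.6 ± 1408 to 23854 ± 1087, a log2 difference of 0.17 (SE 0.069, 95% interval 0.018 to 0.33, adjusted p = 0.0798, limma). It did not pass the threshold with all libraries, and without Elmo1-/- mouse 2 it did, at 0.21 (adjusted p = 0.0132, limma). Eid3, a protein-coding gene on the same strand, overlaps Txnrd1, as do Gm38560 and Gm47073 on the other strand. None of these had values here, and how reads in the overlaps were counted is not given in the sources used here.

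Srxn1 (ENSMUSG00000032802, chr2:152105516-152111376, plus strand) encodes sulfiredoxin. Its normalized counts were 15693, 13854, 13787 and 13451 in the Elmo1+/- libraries, by mouse number, against 15178, 12963, 12682 and 12282 in the Elmo1-/- libraries. Mouse 1 was the highest of each genotype, and in each of the 4 pairs with the same number the Elmo1-/- value was the lower. The share of all tested genes with 4 such pairs was not counted, and the labels state no pairing. The genotypes overlapped, and the log2 genotype difference was -0.10 (SE 0.090, 95% interval -0.30 to 0.11). The log2 set difference was -0.14 (SE 0.070, 95% interval -0.30 to 0.015, adjusted p = 0.142, limma), and without Elmo1-/- mouse 2 it was -0.18 (adjusted p = 0.034).

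Prdx1 (ENSMUSG00000028691, chr4:116685544-116700822, plus strand) encodes peroxiredoxin 1. Its normalized counts were 211788, 202672, 192717 and 172319 in the Elmo1+/- libraries, by mouse number, against 226544, 195544, 168009 and 159442 in the Elmo1-/- libraries, from 126563 to 239471 reads per library. The highest and the lowest value both came from Elmo1-/- mice, mouse 1 and mouse 4. The log2 genotype difference was -0.066 (SE 0.13, 95% interval -0.37 to 0.23), within mice 1 and 2 it was 0.023 and within mice 3 and 4 -0.15. Between sets the level fell by 17.2%, from 209137 ± 13374 to 173122 ± 14117, a log2 difference of -0.27 (SE 0.084, 95% interval -0.46 to -0.087, adjusted p = 0.0319, limma). The call was lost without Elmo1+/- mouse 1, 2 or 4 or Elmo1-/- mouse 3 or 4, where the adjusted p lay between 0.0588 and 0.102 and the log2 difference between -0.30 and -0.24. How reads shared with copies of the gene elsewhere in the genome were counted is not given in the sources used here.

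Cat (ENSMUSG00000027187, chr2:103453849-103485160, minus strand) encodes catalase, an enzyme of peroxisomes. It had normalized counts of 18908, 19464, 18684 and 16291 in the Elmo1+/- libraries, by mouse number, against 18561, 18404, 15652 and 16356 in the Elmo1-/- libraries. The highest 5 values came from mice 1 and 2 and Elmo1+/- mouse 3, which alone made the sets overlap. The log2 genotype difference was -0.089 (SE 0.091, 95% interval -0.30 to 0.12), and the log2 set difference was -0.17 (SE 0.064, 95% interval -0.31 to -0.031, adjusted p = 0.061, limma). The set difference passed with DESeq2 (adjusted p = 0.0346), without Elmo1+/- mouse 3 (adjusted p = 0.0497, limma) and without Elmo1-/- mouse 2 (adjusted p = 0.043, limma).

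Superoxide dismutases turn superoxide into hydrogen peroxide, Sod1 in the cytosol and Sod2 in mitochondria. Sod1 (ENSMUSG00000022982, chr16:90220754-90226329, plus strand) had normalized counts of 5589.8, 5424, 5241 and 5395 in the Elmo1+/- libraries, by mouse number, against 6019, 5287, 5552 and 5031 in the Elmo1-/- libraries. The extremes were Elmo1-/- mice 1 and 4, and the Elmo1+/- values lay between them. The log2 genotype difference was 0.013 (SE 0.071, 95% interval -0.15 to 0.17), and the log2 set difference -0.072 (SE 0.063, 95% interval -0.21 to 0.068, adjusted p = 0.397, limma). Scaf4 overlaps Sod1 on the opposite strand, with a mean of 1122 normalized counts, and whether the counting used strand is not given in the sources used here.

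For Sod2 (ENSMUSG00000006818, chr17:13006846-13040063, plus strand) the normalized counts were 23698, 21918, 23247 and 23599 in the Elmo1+/- libraries, by mouse number, against 23147, 25762, 23618 and 23039 in the Elmo1-/- libraries. It was the steadiest of the 10, with an SD of 0.065 over the 8 libraries on the log2 scale, where the 10 genes had a median SD of 0.12 and all tested genes 0.19. Its log2 genotype difference was 0.047 (SE 0.071, 95% interval -0.12 to 0.21), and its log2 set difference -0.013 (SE 0.065, 95% interval -0.16 to 0.13, adjusted p = 0.891, limma).

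Nqo1 (ENSMUSG00000003849, chr8:107388225-107403206, minus strand), a quinone reductase often read as a sign of NRF2 activity, showed the widest differences of the 10 in both comparisons. Its normalized counts were 5148, 5076, 4286 and 3761 in the Elmo1+/- libraries, by mouse number, against 4529, 4293, 3805 and 3585 in the Elmo1-/- libraries. Within each genotype they stood in the order of sets, with mice 1 and 2 above mice 3 and 4, although Elmo1-/- mouse 2 and Elmo1+/- mouse 3 differed by few counts (4293 and 4286). The mean was 4568 ± 665 in Elmo1+/- and 4053 ± 434 in Elmo1-/- (SD, n = 4 each), a log2 difference of -0.17 (SE 0.12, 95% interval -0.44 to 0.11) and a ratio of 0.470. With 1 mouse left out the log2 difference lay between -0.26, without Elmo1+/- mouse 4 (unadjusted p = 0.0499, adjusted p = 0.9999, limma), and -0.11, without Elmo1+/- mouse 1. An exact two-sided permutation test over the 70 arrangements of the mice gave p = 0.343, where 0.0286 is the smallest it can give.

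The Elmo1-/- value of Nqo1 was the lower in each of the 4 pairs with the same number. The labels state no pairing, and the share of all tested genes with 4 such pairs was not counted. With the number as a block the log2 interval was -0.30 to -0.032 and the unadjusted p was 0.0206 (limma), a level that 2.75% of all tested genes reached, and the adjusted p was 0.9998. The log2 difference was -0.21 within mice 1 and 2 and -0.12 within mice 3 and 4. Between sets Nqo1 fell by 18.9%, from 4762 ± 417 to 3859.6 ± 300.0, a log2 difference of -0.30 (SE 0.062, 95% interval -0.44 to -0.16, adjusted p = 0.00609, limma). That call held in each run that left out 1 library.

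**Figure D4:**
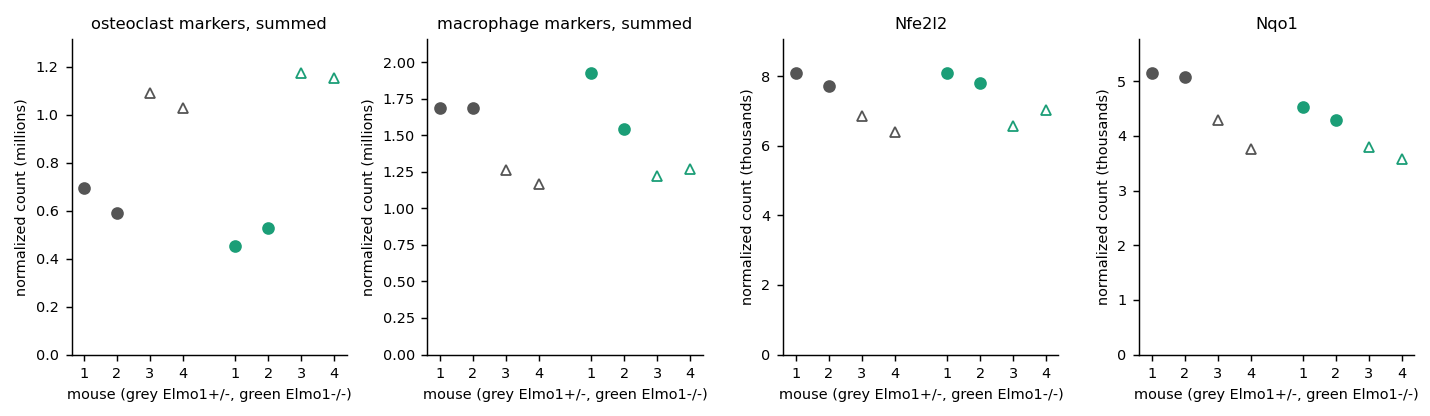
Summed osteoclast markers and summed macrophage markers in normalized counts, and the normalized counts of Nfe2l2 and Nqo1, in each library, with grey for Elmo1+/-, green for Elmo1-/-, circles for mice 1 and 2 and triangles for mice 3 and 4. The osteoclast sum is higher, and the macrophage sum, Nfe2l2 and Nqo1 are lower, in mice 3 and 4 of both genotypes. Most of the macrophage sum is Lyz2.

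A wider list of 85 genes of the NRF2 pathway, in 9 classes by role, was read in the same way, and 77 were tested. By genotype 0 were called with limma, edgeR or DESeq2, and 1, Ggt5, which cleaves glutathione-related molecules, had an unadjusted p under 0.05, the same 1 gene with each of these tools. Its level was 73.5 normalized counts in Elmo1+/- and 100.4 in Elmo1-/- (log2 difference 0.45, unadjusted p = 0.039, adjusted p = 0.9999, limma). Over all tested genes 0.941% had an unadjusted p under 0.05 by limma. By its ratio, the study also lists Ggt5 among genes regulated by Elmo1, from these same libraries. Between sets 26 of 77 were called, which is 33.8% beside 32.6% of all tested genes. Of the 77, 8 were higher and 18 lower in mice 3 and 4, beside 17.0% higher and 15.6% lower of all tested genes. The counts by class below stand beside these same shares. The median log2 set difference was -0.079 over the 77 and -0.0072 over all. Leaving out 1 mouse gave 18 called (without Elmo1+/- mouse 1) to 39 (without Elmo1-/- mouse 2). Of the 26, 16 were called in each of these 8 runs and 10 were lost in at least 1: Maff, Akr1b8 and Osgin1 in 6 runs each, Gsk3b and Gsto1 in 5, Txn2 and Blvra in 4, Ggct in 3, and Idh2 and Blvrb in 1. Another 13 genes passed without Elmo1-/- mouse 2, which was picked out from these same data as lying between the sets. Among them were Chac1 (adjusted p = 0.00316), Glrx (adjusted p = 0.000343), Hmox1 (adjusted p = 0.0382) and Cbr1 (adjusted p = 0.010), all by limma.

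Among the 11 genes that control NRF2 or pair with it, 3 were called between sets. Keap1, which holds NRF2 down, fell from 1743 ± 278 to 1297 ± 40.3 (log2 difference -0.41, SE 0.10, limma adjusted p = 0.0103), normalized counts of mice 1 and 2 and then of mice 3 and 4. Maff, a small MAF partner, rose from 451 ± 44.7 to 555 ± 49.0 (log2 difference 0.30, SE 0.10, limma adjusted p = 0.0401), and Gsk3b, a kinase that marks NRF2 for degradation, was the other gene that rose. Bach1, the competitor, went from 2560.2 ± 257 to 2405 ± 148 (log2 difference -0.087, SE 0.079, limma adjusted p = 0.415) and did not pass. Nfe2l2 and Keap1 were both lower in mice 3 and 4.

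Of 8 genes of glutathione synthesis and recycling, 1 was called. Ggct, a gamma-glutamyl cyclotransferase, fell from 216 ± 33.5 to 147 ± 21.9 (log2 difference -0.56, SE 0.15, limma adjusted p = 0.017). Chac1, which degrades glutathione, went from 241 ± 55.9 to 187 ± 18.3 (log2 difference -0.34, SE 0.14, limma adjusted p = 0.0899) and did not pass. Of 8 glutathione peroxidases and glutaredoxins, 1 was called, Glrx5, a mitochondrial glutaredoxin of iron-sulfur cluster assembly, which rose from 1164 ± 44.3 to 1517 ± 113 (log2 difference 0.38, SE 0.068, limma adjusted p = 0.00339). Glrx, its cytosolic relative, went from 11527 ± 2392 to 13439.5 ± 396 (log2 difference 0.24, SE 0.11, limma adjusted p = 0.105) and did not pass. By genotype Gpx7 had the widest log2 difference of that class, -0.34, at a mean of 26.7 and 20.9 normalized counts in Elmo1+/- and Elmo1-/- (unadjusted p = 0.104, adjusted p = 0.9999, limma).

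Glutathione transferases moved both ways, with 2 of 13 higher and 2 lower. Mgst3, a microsomal member, rose from 981 ± 125 to 1602 ± 71.3 (log2 difference 0.72, SE 0.079, limma adjusted p = 0.000628), the widest set difference of the 77 genes. Mgst1 fell from 3233 ± 180.3 to 2501 ± 99.9 (log2 difference -0.37, SE 0.061, limma adjusted p = 0.00227). The cytosolic Gstm5 had the widest log2 genotype difference of the class, -0.23 (adjusted p = 0.9999, limma). Reads that members of this family share could be split between them by the counting.

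Of 10 thioredoxins and peroxiredoxins beside those already described, 5 were called, where 32.6% of all tested genes were. Prdx3, the mitochondrial peroxiredoxin, rose from 3279 ± 337 to 4521 ± 166 (log2 difference 0.47, SE 0.078, limma adjusted p = 0.00234), and mitochondrial thioredoxin, Txn2, rose too. Prdx5 fell from 38853 ± 5932 to 26556 ± 867 (log2 difference -0.54, SE 0.10, limma adjusted p = 0.00357), and Prdx4 and Prdx6 fell as well, as Prdx1 did. Among 6 other superoxide and methionine sulfoxide enzymes, 1 was called, Msrb1, a methionine sulfoxide reductase, which fell from 7544 ± 1298 to 5479 ± 183 (log2 difference -0.45, SE 0.11, limma adjusted p = 0.0128).

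By genotype the widest log2 differences in the last 2 groups were -0.13 for Txnrd3, another thioredoxin reductase, and 0.47 for Sod3, the secreted superoxide dismutase, at means of 9.19 and 13.3 normalized counts in Elmo1+/- and Elmo1-/- (unadjusted p = 0.0837, adjusted p = 0.9999, limma). Msrb3 had a log2 set difference of 0.28 and did not pass (adjusted p = 0.414, limma).

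NADPH-producing enzymes supply the reducing power for these systems, and 3 of 7 were called, where 32.6% of all tested genes were. Idh1, the cytosolic isocitrate dehydrogenase, fell from 9714 ± 673 to 7143 ± 155 (log2 difference -0.44, SE 0.060, limma adjusted p = 0.0011), and G6pdx, the first enzyme of the pentose phosphate pathway, fell too. Idh2, the mitochondrial form, rose from 3305 ± 517 to 4310.2 ± 85.9 (log2 difference 0.40, SE 0.10, limma adjusted p = 0.0151). Me1, malic enzyme, had the widest log2 genotype difference of the class, -0.13 (unadjusted p = 0.0667, adjusted p = 0.9999, limma).

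Haem breakdown and ferritin genes, known NRF2 targets, had 3 of 5 called, all lower in mice 3 and 4. Fth1, the ferritin heavy chain, fell from 919654 ± 147415 to 636952 ± 14448 (log2 difference -0.52, SE 0.12, limma adjusted p = 0.0089), and Blvrb, a biliverdin reductase, fell from 13808 ± 1665 to 10763 ± 478 (log2 difference -0.35, SE 0.087, limma adjusted p = 0.0131). Hmox1, which opens the haem ring, went from 89875 ± 9618 to 78213 ± 8169.7 (log2 difference -0.20, SE 0.091, limma adjusted p = 0.115) and did not pass. Fth1 has copies in the genome whose reads may be shared. Of 9 quinone, carbonyl and xenobiotic enzymes and exporters, 5 were called, all lower. Over all tested genes 32.6% were called and 15.6% were lower. Classes of 5 and 9 genes are too small to read these counts as results about the class or about NRF2. Ephx1, an epoxide hydrolase, fell from 1148 ± 50.4 to 799 ± 27.4 (log2 difference -0.52, SE 0.060, limma adjusted p = 0.000709), and Osgin1, a growth inhibitor induced by oxidative stress, fell from 1325 ± 311 to 911 ± 36.6 (log2 difference -0.51, SE 0.15, limma adjusted p = 0.0333). By genotype Hmox1 (-0.14) and Cbr1, a carbonyl reductase (-0.14), had the widest log2 differences of these classes (adjusted p = 0.9999 each, limma). All 10 osteoclast markers and 4 of 8 macrophage markers moved with the same division of the libraries. Their part in these set differences was not tested.

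**Figure D5:**
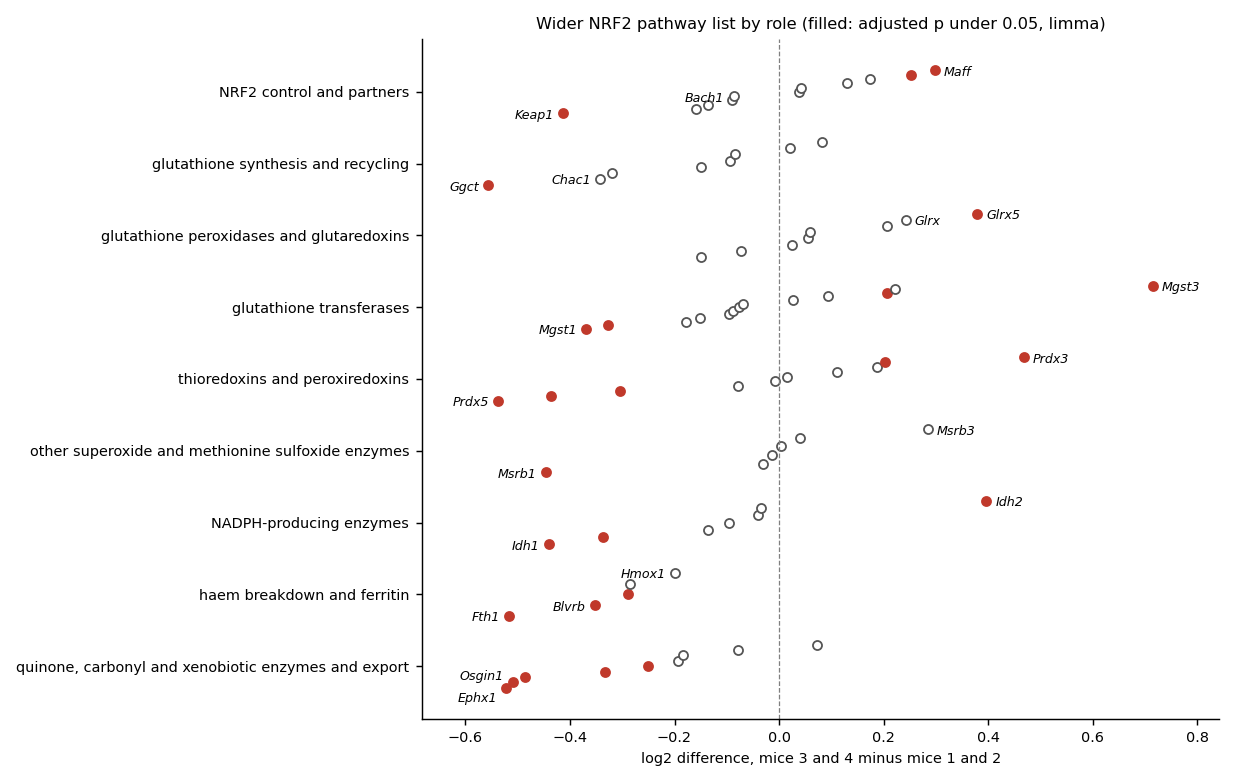
Log2 difference between mice 3 and 4 and mice 1 and 2 for the 77 tested genes of the wider list, by role class, filled where the adjusted p from limma was under 0.05, with the genes named by rule labelled. The filled points run from -0.56 for Ggct to 0.72 for Mgst3, and the 3 filled points of haem breakdown and ferritin and the 5 of the last class all lie below 0.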

How the data were processed

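RNA was measured in cultured osteoclasts of 4 Elmo1-/- and 4 Elmo1+/- mice (75 bp paired-end reads, TruSeq mRNA libraries). Per the labels, the submitters' processing notes name FastQC, STAR, featureCounts and DESeq2 without versions. Neither the genome build nor the annotation is given in the sources used here. The authors deposited a normalized signal, the count of each of 46517 genes divided by 1 size factor per library. Their deposited table also holds their own comparison of the genotypes (a mean signal, a log2 fold change with its standard error, a test score, a p-value and an adjusted p-value), which was not used. Reads were recovered from the steps between low values, and 100% came out whole to within 0.01. Of the identifiers, 46005 matched GENCODE M21 (GRCm38) for symbols, positions and exon lengths and 512 did not.

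Groups came from the genotype labels and mouse numbers from the titles. Genes with a normalized count of 10 or more in 4 or more libraries were tested with limma 3.58.1 (R 4.3.3, trend and robust) after log2(value + 1). All 14139 p-values were adjusted together by Benjamini-Hochberg, with a threshold of 0.05. Fold changes on this scale understate changes of low genes. Contrasts were genotype, mice 3 and 4 against mice 1 and 2 with genotype as a term, and their interaction. Single genes also had exact permutation tests. The limma p-values rest on 4 mice per group.

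The 10 genes, the wider list, the marker lists and the division by mouse number were chosen with earlier results of these data known. The genes named were all 10, Elmo1, and from each class of the wider list the 2 with the widest set difference and the 1 with the widest genotype difference, plus Keap1, Bach1 and Hmox1, and the 3 genes most like Nfe2l2. Others named beside a count were chosen after their values were seen.

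Libraries of the same number deviated together from their genotype means, with correlations across genes of 0.703, 0.156, 0.598 and 0.520 for numbers 1 to 4, and by a criterion of over 0.1 in each pair the numbers, which come from the titles, were taken to pair the libraries. Different numbers of the same set correlated at 0.0259 to 0.691, so these values do not separate pairing by number from the division into sets. No library was a copy of another (chi-square per gene 8.72 to 190 within genotypes). Alternatives were edgeR 4.0.16 quasi-likelihood and DESeq2 1.42.0 Wald tests on the recovered reads. Scaling to equal totals or by TMM, no filter, a minimum of 50 and pseudocounts of 0.5 and 8 were also run. Other runs left out each library, took the number as a block or the set as a term, or used the longest transcript for length. Shares of all reads and counts of sets that do not overlap were added after the data were seen. Scripts were tested on simulated data. Python 3.11.15, numpy 2.4.6, pandas 2.3.3, scipy 1.17.1 and matplotlib 3.10.9 were used.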

Additional observations from a re-analysis of the deposited data

How the results depend on the processing

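By genotype none of the 10 genes, and none of the wider list, was called under any alternative run. The count over all genes was 1, Elmo1, except 2 with DESeq2 and 2 without Elmo1+/- mouse 2, both times with Gpr137b-ps as the second gene, named after its values were seen, so leaving out 1 mouse gave 1 to 2 genes. The log2 difference of Elmo1 lay between -2.49 and -2.39. With 1 mouse left out, the sign of the small genotype differences turned for Nfe2l2 (-0.035 to 0.079), Txnrd1 (-0.087 to 0.024), Sod1 (-0.034 to 0.052) and Prdx1 (-0.16 to 0.0069). Gclm, Gclc, Srxn1, Cat and Nqo1 stayed below 0 (-0.26 to -0.040) and Sod2 above (0.010 to 0.064). Within a set the sign turned for Prdx1 in mice 1 and 2 (0.023) and for Sod1 (-0.0089) and Sod2 (-0.0059) in mice 3 and 4. Of 210 genotype differences of the 10 genes under an alternative, 198 kept their sign. With the replicate block 1 gene, Elmo1, was called and 0 of the 10, and it changed no call.

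Between sets, leaving out 1 mouse gave 2861 to 6897 genes over all and 2 to 6 of the 10. The counts over all genes were 2861, 2900 and 2899 without Elmo1+/- mouse 1, 2 and 3, and 2863 and 2874 without Elmo1-/- mouse 3 and 4. The set difference turned its sign with equal totals for Gclc (0.029) and Sod2 (0.023), and with 1 mouse left out it lay between -0.077 and 0.041 for Gclc, -0.10 and 0.016 for Gclm and -0.046 and 0.028 for Sod2. Within 1 genotype it turned for Gclc in Elmo1-/- (0.045) and Sod2 in Elmo1+/- (0.039). Of 180 set differences of the 10 genes under an alternative, 168 kept their sign, 5 lost a call and 5 gained 1, and all 30 interaction values kept their sign. The wider list had 18 to 39 genes called between sets with 1 mouse left out. Of 100 values of the ratio, 97 moved by less than the spread between mice. Scaling moved the median of all genes by at most 0.036. With 4 mice per group the 95% intervals by genotype allow differences of the size given beside each gene. Each of the 10 genes had 1038 reads or more in every library. The causes of these changes were not tested.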

Other observations

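Slc25a37, the mitochondrial iron importer mitoferrin 1, had the pattern most like Nfe2l2 over the 8 libraries, with Pearson r = 0.991 on log2 values among 10901 genes with a mean of at least 100 normalized counts. Myadm (r = 0.990) and Prpf40b (r = 0.989) followed. After the means of the sets were removed these were 0.922, 0.945 and 0.915, over the same 8 libraries. These correlations describe libraries that share 2 sets, and they have no test.

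Across the same libraries the closest enzyme to Nfe2l2 was Prdx1 (r = 0.82), and Txnrd1 ran against it (r = -0.69). After the set means were removed, the correlations of Nfe2l2 with the 9 enzymes lay between -0.12 and 0.26. Among the enzymes themselves, Gclm and Txnrd1 (r = 0.86), Srxn1 and Prdx1 (r = 0.81), Cat and Nqo1 (r = 0.72) and Gclm and Gclc (r = 0.69) still varied together after that step, and Gclc and Sod1 ran in opposite directions (r = -0.87). These pairs are the extremes of all pairs of enzymes. Elmo1-/- mouse 1 was the lowest library for Gclm, Gclc and Txnrd1 and the highest for Sod1 and Prdx1. It also lay farthest out on the first component (-52.3, against -6.03 for Elmo1-/- mouse 2), and removing set means leaves such differences within a set. The correlations were not repeated without it. The 8 libraries share culture and depth differences, and these values are descriptions without a test.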
